A study of Homo sapiens with 6 samples.

Results

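The 41 genes described here encode the machinery that copies DNA: the factors that license origins, the helicase that unwinds them, the polymerases, the sliding clamp with its loader, and the proteins that coat single strands, guard the fork and rebuild chromatin behind it. They were chosen by symbol from a fixed list, and all 41 were found among the 29571 genes of the deposited expression table. The cells are DB, a line grown from a patient's diffuse large B-cell lymphoma. One group is labelled DB_ZHX2_Mut4 (Mut4 cells) and the other DB_ZHX2 (ZHX2 cells), after ZHX2, a zinc finger and homeobox transcription factor. Each group has 3 labelled libraries of poly(A) RNA. The labels name no treatment, time, vector or promoter, do not say what Mut4 alters, and do not say whether a group is 1 clone, and no untreated control is among the samples used here.

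In human cells, an origin is licensed in G1 when the origin recognition complex, CDC6 and CDT1 load the ring-shaped MCM2-7 helicase onto DNA. In S phase CDC45 and the GINS complex bind the ring to form the active CMG helicase, with MCM10 helping it to start. Polymerase alpha-primase then lays down primers, polymerase epsilon and polymerase delta extend them, and delta does so with the clamp PCNA, which RFC loads. Many of these genes are transcribed together at the G1/S boundary under E2F factors, and their mRNA is abundant in dividing lymphoma cells.

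The 3 columns of a group were not independent measurements. Within Mut4 cells, the second and the third column equalled the first multiplied by 1.05 and by 1.21 at each of 23808 genes above 0, and within ZHX2 cells the multipliers were 1.33 and 0.897 at 23368 of 23370 genes, to a relative tolerance of 1e-06. They differed by less than any sampling noise and each group was counted as 1 sample, so no difference below has a replicate check and none has a p-value or an SD computed here. Values are FPKM, a level per transcript length and library size, with column sums from 294109 to 355116 in Mut4 cells and from 258080 to 383426 in ZHX2 cells. The table gives no read counts, so depth is unknown. ZHX2 itself, whose row cannot tell a mutant from a wild-type transcript here, averaged 14.9 FPKM in Mut4 cells, against 18.0 in ZHX2 cells. The B-cell markers MS4A1, CD79A, CD79B, PAX5, CD22 and BCL6 were all present, at 19.96 to 249 FPKM in Mut4 cells, against 21.6 to 195 in ZHX2 cells, with sums of 633 FPKM in Mut4 cells and 591 in ZHX2 cells. The 4 T-cell markers with a row averaged 0 to 0.738 FPKM in Mut4 cells, against 0 to 0.887 in ZHX2 cells. The 4 myeloid markers with a row averaged 0.0367 to 0.634 FPKM in Mut4 cells, against 0.0224 to 0.794 in ZHX2 cells. Group means of either type were thus below 1 FPKM, though CD8A had 1.10 FPKM in ZHX2 replicate 2. The 5 epithelial markers lay at 2.44 to 5.11 FPKM in Mut4 cells, against 2.12 to 5.00 in ZHX2 cells, with sums of 19.0 FPKM in Mut4 cells and 17.4 in ZHX2 cells and a median log2 ratio of 0.08, and their part in the differences below was not tested.

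The replication genes were slightly but widely higher in Mut4 cells. Ratios are log2(FPKM + 1) of Mut4 cells minus that of ZHX2 cells, on the mean of the 3 columns, and folds are 2 to that power, which understates the fold of low genes. All 41 genes passed the filter of at least 1 FPKM in at least 3 columns, which left 12643 genes in all. The median log2 ratio of the 41 was 0.25, against 0.02 over all genes. Of the 41, 37 had a ratio above 0, against 53.8% of all genes. At least 1.2-fold higher in Mut4 cells were 19 of 41 (46.3%), against 16.4% of all genes, and at least 1.5-fold higher were 2 of 41, against 2.54%. None of the 41 was 1.2-fold lower, against 13.0% of all genes, and none was 1.5-fold lower, against 2.56%. The difference is thus one of many small ratios and not of large ones: at 1.5-fold the count of 2 is near the background share. In bulk RNA, a larger share of cells in S phase and more of these mRNAs per cell cannot be told apart.

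**Figure D1:**
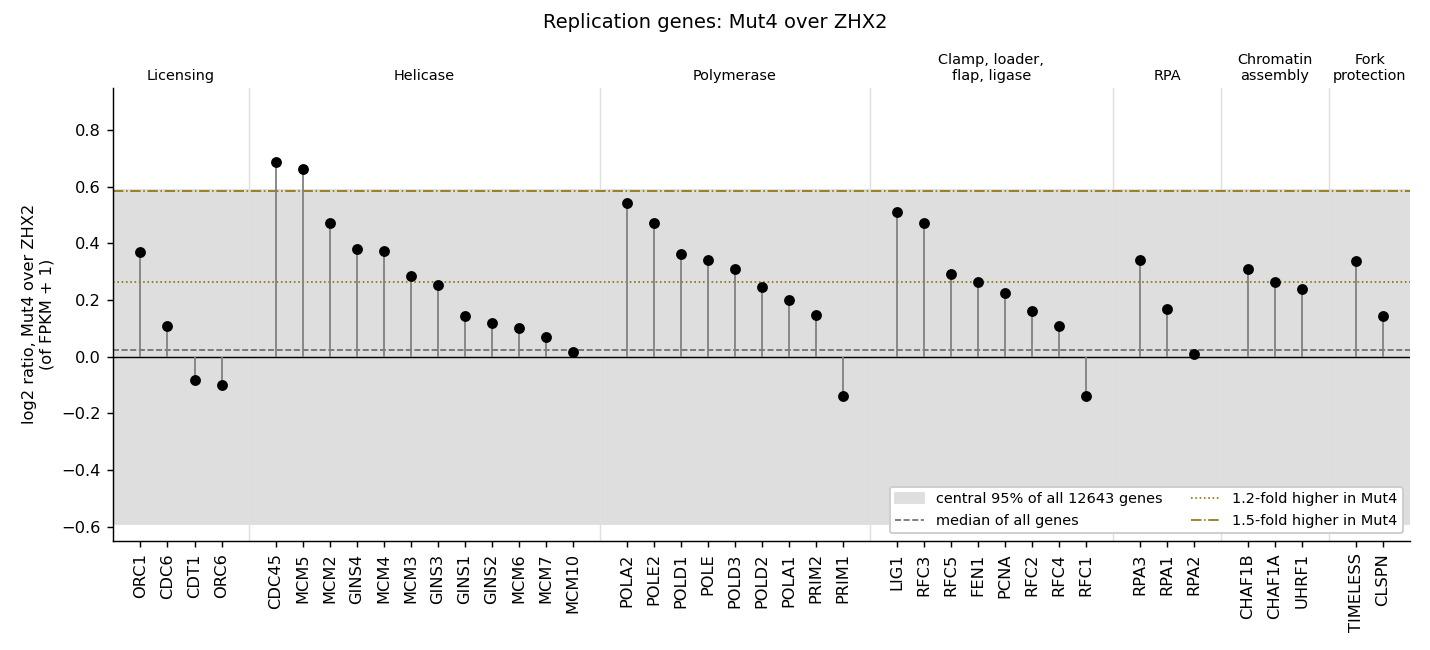
Log2 ratio (Mut4 over ZHX2, of FPKM + 1) of each of the 41 replication genes, ordered within their roles. Points are single values with no replicate error, the shaded band is the central 95% of all 12643 genes (−0.59 to 0.59), and lines mark the median of all genes, 1.2-fold and 1.5-fold. CDC45 and MCM5 stand above the band and 4 genes lie below 0.

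Because the columns differ by constants, the zero of a ratio depends on which columns are averaged, whereas the order of plain FPKM ratios does not. With the pseudocount the order moves too, but less. Placed by order, 35 of 41 members lay above the median of all genes, against 50.0% of all genes, and 25 lay in the top 25.0%, and these counts were 37 and 27 without ZHX2 replicate 2 and as given without each of the other columns. The count of 19 at 1.2-fold was 9 without ZHX2 replicate 3 and 34 without ZHX2 replicate 2, with 10.1% and 35.1% of all genes past that fold. The count of 2 at 1.5-fold was 0 without ZHX2 replicate 3, 1 without Mut4 replicate 3 and 7 without ZHX2 replicate 2. The share of all genes past 1.5-fold was not computed for these omissions, so these counts have no background beside them. The gap between the median of the 41 and that of all genes moved less, from 0.22 to 0.25 over the same 6 omissions.

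**Figure D2:**
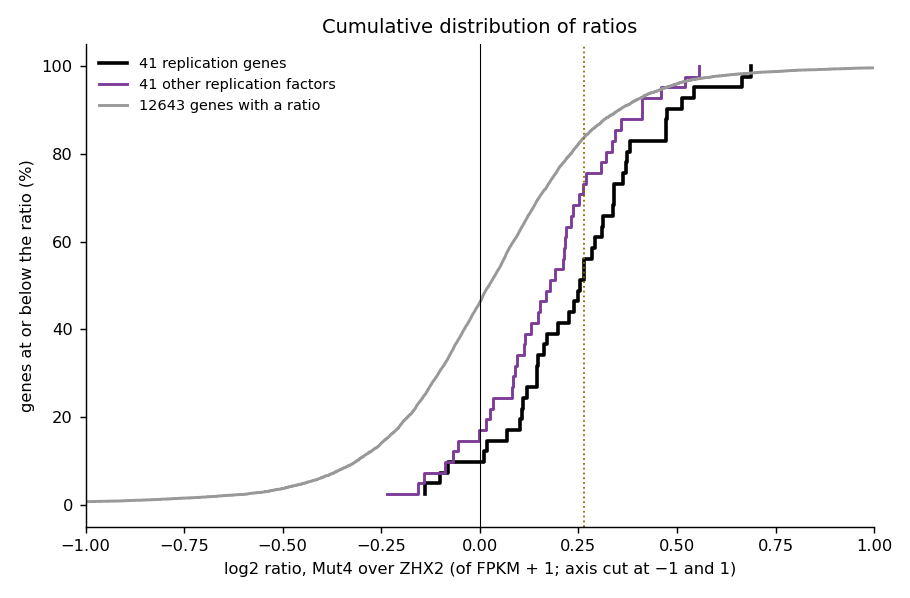
Cumulative share of genes (%) at or below each log2 ratio, for the 41 replication genes, for 41 other replication factors and for all 12643 genes with a ratio. The dotted line marks 1.2-fold. The curve of the 41 genes runs to the right of that of all genes except at its upper end, with medians of 0.25 and 0.02.

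Promoter sequence was read for the members to see what they share beyond their products. RefSeq windows on GRCh38.p14, from 250 bases before to 50 bases after each annotated start, were matched by symbol for 35 of 41 members, and the other 6 were GINS4, MCM4, MCM5, POLD3, RPA2 and RPA3. A window was searched on both strands for the E2F consensus in its 4 forms, TTTCCCGC, TTTCGCGC, TTTGCCGC and TTTGGCGC. Among the 35, 18 (51.4%) held a match in at least 1 window, against 616 of 8866 genes with a ratio and a window (6.95%) and 3.31% of all 35116 windows. Where a gene had a single window, the shares were 15 of 29 members (51.7%) and 5.77% of genes with a ratio. TTTCCCGC was found in 10 member genes, TTTCGCGC and TTTGGCGC in 6 each and TTTGCCGC in 0. The 250 bases before the start follow for 6 members with a single window, chosen after their values and matches were seen: 3 of high ratio that hold a match, MCM6 for its number of matches, and the 2 of lowest ratio, which hold none. CDC45, the member of highest ratio (0.69), holds no match in its 3 windows and is not printed. Each runs 5′ to 3′ on the gene's strand, with E2F matches in capitals.
POLA2, chr11:65261712-65261961 (plus strand): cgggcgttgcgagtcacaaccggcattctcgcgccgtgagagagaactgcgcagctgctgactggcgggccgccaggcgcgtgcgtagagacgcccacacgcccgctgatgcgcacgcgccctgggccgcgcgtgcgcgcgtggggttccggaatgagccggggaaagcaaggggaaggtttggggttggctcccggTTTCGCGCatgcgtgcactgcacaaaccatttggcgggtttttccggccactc
LIG1, chr19:48170345-48170594 (minus strand): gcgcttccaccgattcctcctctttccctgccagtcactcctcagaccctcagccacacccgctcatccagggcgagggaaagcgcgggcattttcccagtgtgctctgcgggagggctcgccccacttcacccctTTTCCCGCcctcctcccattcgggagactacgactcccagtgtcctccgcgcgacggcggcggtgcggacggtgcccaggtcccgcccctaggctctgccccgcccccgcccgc
RFC3, chr13:33817899-33818148 (plus strand): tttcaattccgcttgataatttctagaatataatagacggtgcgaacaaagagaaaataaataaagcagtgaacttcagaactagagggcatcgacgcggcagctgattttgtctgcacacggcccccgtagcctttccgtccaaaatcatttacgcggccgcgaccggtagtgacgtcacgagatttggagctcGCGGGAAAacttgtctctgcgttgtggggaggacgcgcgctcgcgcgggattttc
MCM6, chr2:135876444-135876693 (minus strand): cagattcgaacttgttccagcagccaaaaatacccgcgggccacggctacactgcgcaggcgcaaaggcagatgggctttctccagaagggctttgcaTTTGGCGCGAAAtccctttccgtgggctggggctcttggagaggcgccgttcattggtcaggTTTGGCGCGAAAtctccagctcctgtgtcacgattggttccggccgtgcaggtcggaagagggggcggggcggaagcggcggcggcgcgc
PRIM1, chr12:56752324-56752573 (minus strand): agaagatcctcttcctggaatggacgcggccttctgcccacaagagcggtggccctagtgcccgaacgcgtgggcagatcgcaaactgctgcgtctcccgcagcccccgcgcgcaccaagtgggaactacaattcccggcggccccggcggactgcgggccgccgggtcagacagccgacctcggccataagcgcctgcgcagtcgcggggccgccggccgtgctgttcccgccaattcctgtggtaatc
RFC1, chr4:39366363-39366612 (minus strand): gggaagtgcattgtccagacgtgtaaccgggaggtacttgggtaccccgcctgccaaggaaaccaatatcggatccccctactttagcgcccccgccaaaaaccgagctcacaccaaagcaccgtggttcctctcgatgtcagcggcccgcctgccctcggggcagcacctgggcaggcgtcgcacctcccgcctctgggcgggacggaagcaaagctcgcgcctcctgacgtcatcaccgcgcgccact

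POLA2, LIG1 and RFC3, with log2 ratios of 0.54, 0.51 and 0.47, each hold 1 match, in RFC3 on the opposite strand. MCM6, at 0.10, holds 4 matches in 2 copies of a run in which the forms overlap on both strands, and PRIM1 and RFC1, both at −0.14, hold 0. The match does not sort the members by ratio. With a single window, the 15 members with a match had a median ratio of 0.25 and the 14 without one 0.21. Over all genes with a ratio and 1 window, those with a match had a median of 0.06 and those without 0.01. Matches in 6 more members follow, with 10 bases on either side, 5′ to 3′ on the strand of the match, whose 8 letters are in capitals. They run from the highest ratio to the lowest and show that the same letters stand near the starts of genes of high and of low ratio.
POLE2, chr14:49688202-49688229 (plus strand): atatttgcgaTTTGGCGCcaccgccgca
MCM2, chr3:127598403-127598430 (plus strand): gtgaaccactTTTCGCGCgaaacctggt
POLE, chr12:132687343-132687370 (plus strand): aggggagaaaTTTGGCGCgctcccaccc
MCM3, chr6:52284899-52284926 (minus strand): ggatggtacgTTTCCCGCcaccgcgggg
CDC6, chr17:40287876-40287903 (plus strand): gccattcggaTTTGGCGCgagcgcggct
CDT1, chr16:88803744-88803771 (minus strand): tcccgccaaaTTTCCCGCgggcgccctg

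POLE2 and MCM2 had log2 ratios of 0.47, POLE 0.34, MCM3 0.28, CDC6 0.11 and CDT1 −0.08. CCAAT, the box bound by NF-Y, was found on either strand in 18 of 29 single-window members (62.1%). It was found in 39.0% of such genes with a ratio and in 34.6% of all windows. The median ratio of these members was 0.16 with the box and 0.31 without it. Over all genes with a ratio and 1 window, the medians were 0.018 with it and 0.011 without it. The CHR element of mitotic promoters, searched as TTCGAA or TTTGAA on both strands, was found in 1 of 29 (3.45%), MCM6, against 11.2% of such genes and 16.4% of all windows. Matches of different motifs can share end letters and were counted for each motif, and a match is a match of letters only.

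Licensing factors differed among themselves and as a group stood near the median of all genes. ORC1, the ATP-binding large subunit of the origin recognition complex, had 13.5, 14.2 and 16.3 FPKM in Mut4 cells, against 10.3, 13.8 and 9.28 FPKM in ZHX2 cells. Its log2 ratio was 0.37 (1.29-fold on the FPKM + 1 scale), with columns that overlap. CDC6, the ATPase that joins the origin complex to recruit the ring, averaged 15.5 FPKM in Mut4 cells, against 14.3 in ZHX2 cells (log2 ratio 0.11). CDT1, which brings MCM2-7 to the origin and is destroyed in S phase, had 17.8, 18.7 and 21.5 FPKM in Mut4 cells, against 19.1, 25.4 and 17.1 FPKM in ZHX2 cells (−0.08). ORC6, the smallest subunit of the origin complex, averaged 13.2 FPKM in Mut4 cells, against 14.2 in ZHX2 cells (−0.10). The median of the 4 was 0.01, and 1 of them was 1.2-fold higher (25%, against 16.4% of all genes). The signs of CDC6, CDT1 and ORC6 were not the same under all settings tried, with ranges of −0.0011 to 0.28, −0.19 to 0.09 and −0.21 to 0.07, and CDT1 and ORC6 were above 0 only without ZHX2 replicate 2 (0.09 and 0.07).

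Helicase genes held the highest ratios of the set. CDC45 (ENSG00000093009, chromosome 22 from 19479459 to 19520612 on GRCh38), the subunit that joins the loaded ring to make it unwind, had 17.7, 18.6 and 21.4 FPKM in the Mut4 columns, against 10.7, 14.3 and 9.63 FPKM in the ZHX2 columns. Every Mut4 column was above every ZHX2 column, as at 11.0% of all genes. With columns that are multiples of 1 profile, this reflects only the size of the ratio, for every gene where it is given. The log2 ratio of CDC45, 0.69 (1.61-fold), ranked 207 of 12643 genes. MCM5 (ENSG00000100297, chromosome 22 from 35400063 to 35425430), which forms a gate of the ring together with MCM2, had 27.9, 29.4 and 33.7 FPKM in Mut4 cells, against 17.5, 23.3 and 15.7 FPKM in ZHX2 cells (0.66, 1.58-fold, rank 228). Its columns did not overlap either. Both genes lie on chromosome 22, where 24.8% of 331 genes were at least 1.2-fold higher, the highest share of any numbered chromosome or X, with a median of 0.05.

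The other ring subunits spread widely below MCM5. MCM2 had 67.0, 70.6 and 80.9 FPKM in Mut4 cells, against 48.5, 64.7 and 43.6 FPKM in ZHX2 cells (0.47, 1.39-fold), again without overlap. MCM4 averaged 41.6 FPKM in Mut4 cells, against 31.8 in ZHX2 cells (0.37), and MCM3, the most abundant of the 6 per length, 106.8 FPKM in Mut4 cells, against 87.5 in ZHX2 cells (0.28). MCM6 had 62.7, 66.0 and 75.8 FPKM in Mut4 cells, against 58.9, 78.6 and 52.9 FPKM in ZHX2 cells (0.10). MCM7 had 67.3, 70.8 and 81.2 FPKM in Mut4 cells, against 64.6, 86.2 and 58.0 FPKM in ZHX2 cells (0.07). For MCM6 and MCM7 the columns of the groups interleave, and the sign was not the same under all settings tried (−0.01 to 0.28 and −0.04 to 0.25). MCM10, which helps the assembled helicase to begin unwinding, stood at 5.51 FPKM in Mut4 cells, against 5.43 in ZHX2 cells, with a ratio of 0.02 that ran from −0.08 to 0.17 over the same settings.

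The 4 GINS subunits, which clamp CDC45 to the ring, all had ratios above 0. GINS4 was highest, at 2.81, 2.95 and 3.39 FPKM in Mut4 cells, against 1.96, 2.61 and 1.76 FPKM in ZHX2 cells (0.38, 1.30-fold), with no overlap between the columns. GINS3, GINS1 and GINS2 had ratios of 0.25, 0.15 and 0.12. Over the 12 helicase genes the median was 0.27, and all 12 ratios were above 0, against 53.8% of all genes. At least 1.2-fold higher were 6 (50%, against 16.4% of all genes).

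**Figure D3:**
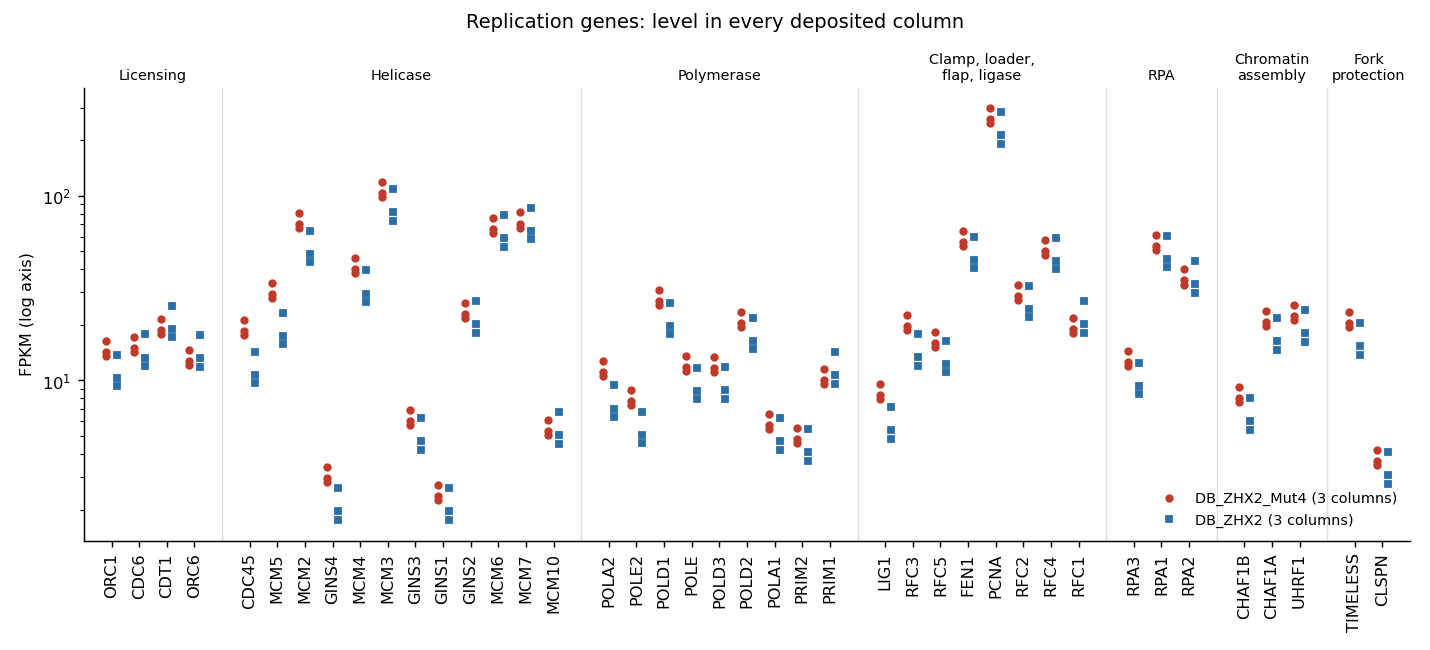
FPKM (log axis) of the 41 replication genes in each of the 6 deposited columns, with the 3 Mut4 columns to the left (circles) and the 3 ZHX2 columns to the right (squares) of each gene's position. The columns of a group are multiples of 1 profile, so their spread is not replicate error. In CDC45, MCM5, MCM2, GINS4, POLA2, POLE2, LIG1 and RFC3 the lowest Mut4 column is above the highest ZHX2 column.

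Polymerase genes had the highest median of the larger roles, 0.31 over 9 genes. At least 1.2-fold higher were 5 of the 9 (55.6%, against 16.4% of all genes). POLA2, the regulatory B subunit of polymerase alpha, had 10.6, 11.2 and 12.8 FPKM in Mut4 cells, against 7.05, 9.40 and 6.32 FPKM in ZHX2 cells (0.54, 1.46-fold). POLE2, the B subunit of polymerase epsilon, the leading-strand enzyme, had 7.34, 7.73 and 8.87 FPKM in Mut4 cells, against 5.08, 6.77 and 4.56 FPKM in ZHX2 cells (0.47, 1.39-fold). In both genes the columns did not overlap. The catalytic subunit POLE averaged 12.3 FPKM in Mut4 cells, against 9.47 in ZHX2 cells (0.34). Of polymerase delta, which copies the lagging strand, the catalytic POLD1 had a ratio of 0.36 and the accessory POLD3 and POLD2 had ratios of 0.31 and 0.25. POLA1, the catalytic subunit of polymerase alpha, stood at 0.20 and the large primase subunit PRIM2 at 0.15. PRIM1, the catalytic subunit of primase, was the exception: it had 9.56, 10.1 and 11.5 FPKM in Mut4 cells, against 10.7, 14.3 and 9.62 FPKM in ZHX2 cells (−0.14), and its ratio was above 0 only without ZHX2 replicate 2 (0.03).

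Counting of some of these genes is uncertain, since exons of 18 members overlap exons of another gene in GENCODE v29 and the sources used here do not say how strand was used in counting. POLA2 shares 2012 exon bases on its own strand with the record AP000944.2, listed at 1.01 FPKM in Mut4 cells, against 2.24 in ZHX2 cells. PRIM1 shares 362 bases with the record AC117378.1 on its strand and 33 with NACA. POLD1 shares 426 bases with AC020909.1, and FEN1 shares 49 with FADS2, which was at 23.5 FPKM in Mut4 cells, against 13.6 in ZHX2 cells. On the opposite strand MCM2 overlaps AC023593.1 over 1113 bases and MCM7 overlaps AP4M1 over 392, at 2.16 FPKM in Mut4 cells, against 1.79 in ZHX2 cells. PCNA, FEN1, POLD2, RFC3, RFC5 and RPA2 also have named pseudogenes in that annotation.

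The clamp, its loader and the enzymes that join Okazaki fragments had a median of 0.24 over 8 genes. At least 1.2-fold higher were 3 of the 8 (37.5%, against 16.4% of all genes). LIG1, the ligase that seals Okazaki fragments, had 7.97, 8.38 and 9.62 FPKM in Mut4 cells, against 5.36, 7.14 and 4.81 FPKM in ZHX2 cells (0.51, 1.43-fold). RFC3, a small subunit of the clamp loader, had 18.7, 19.7 and 22.6 FPKM in Mut4 cells, against 13.4, 17.8 and 12.0 FPKM in ZHX2 cells (0.47, 1.39-fold). The columns of LIG1 and RFC3 did not overlap. PCNA, the sliding clamp and the most abundant member per length, had 247, 259.7 and 298 FPKM in Mut4 cells, against 213, 283 and 191 FPKM in ZHX2 cells (0.23, 1.17-fold), and its columns interleave. FEN1, which cuts the flap ahead of ligation, averaged 58.4 FPKM in Mut4 cells, against 48.5 in ZHX2 cells (0.26, just under 1.2-fold on the FPKM + 1 scale). RFC5, RFC2 and RFC4, the other small loader subunits, had ratios of 0.29, 0.16 and 0.11. RFC1, the large subunit, had 18.0, 18.9 and 21.7 FPKM in Mut4 cells, against 20.1, 26.8 and 18.0 FPKM in ZHX2 cells (−0.14), and was above 0 only without ZHX2 replicate 2 (0.04).

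The single-strand binding protein RPA differed by subunit. RPA3, the smallest, averaged 13.0 FPKM in Mut4 cells, against 10.1 in ZHX2 cells (0.34). RPA1, the largest and main DNA-binding subunit, stood at 55.5 FPKM in Mut4 cells, against 49.2 in ZHX2 cells (0.17), and RPA2, which is phosphorylated under replication stress, at 36.0 FPKM in Mut4 cells, against 35.7 in ZHX2 cells (0.01). Chromatin assembly genes were close together: CHAF1B and CHAF1A, of the CAF-1 chaperone that places new histones at the fork, had ratios of 0.31 and 0.27, and UHRF1, which reads hemimethylated DNA to recruit the maintenance methyltransferase, had 0.24. TIMELESS, of the fork protection complex, averaged 21.1 FPKM in Mut4 cells, against 16.5 in ZHX2 cells (0.34), and CLSPN, the adaptor that passes the checkpoint signal from ATR to CHEK1, 3.77 FPKM in Mut4 cells, against 3.32 in ZHX2 cells (0.14).

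In all, 8 of 41 members (CDC45, MCM5, MCM2, GINS4, POLA2, POLE2, LIG1 and RFC3) had every Mut4 column above every ZHX2 column, against 11.0% of all genes, and 0 had the reverse, against 8.86%. This count depends only on the constants of the columns and on the ratio, and is no test. The authors' deposited p was under 0.05 with a higher Mut4 level for the same 8 members, against 7.76% of all genes. It was under 0.05 with a lower level for 0 members, against 8.37%. That both rules name the same 8 is not separate evidence, since among the 41 both follow the size of the ratio. The 8 had the lowest deposited ratios of ZHX2 over Mut4 cells among the 41. Of these the highest was 0.724 for MCM2, and ORC1 came next at 0.765. The deposited q was under 0.05 for 2 members, CDC45 (0.0169) and MCM5 (0.0255), against 2.33% of all genes on that side. The authors marked 0 members as significant, not even CDC45 and MCM5, so their mark does not follow from q under 0.05 alone. The share of all genes so marked was not computed. The submitters' processing notes name edgeR, but the sources used here do not say how it was run or how those p and q were computed.

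Ratios within a complex do not depend on the constants, since each column of a group gives the same share. Of the summed FPKM of MCM2-7, MCM5 made up 7.73% in Mut4 cells and 5.81% in ZHX2 cells, and MCM2 18.5% in Mut4 cells and 16.2% in ZHX2 cells. MCM7 made up 18.6% in Mut4 cells and 21.5% in ZHX2 cells, and MCM6 17.4% in Mut4 cells and 19.6% in ZHX2 cells. MCM3 stayed the largest part, at 27.2% in Mut4 cells and 27.0% in ZHX2 cells, and MCM5 the smallest. MCM2 was above MCM6 in Mut4 cells and below it in ZHX2 cells. The most abundant ring mRNA was 3.52 times the least abundant in Mut4 cells and 4.65 times in ZHX2 cells.

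Of the complexes examined, the largest shift in shares was in polymerase alpha-primase. POLA2 made up 35.1% of the 4 mRNAs in Mut4 cells and 26.5% in ZHX2 cells, and PRIM1 31.6% in Mut4 cells and 40.4% in ZHX2 cells, so that their order was reversed. Both POLA2 and PRIM1 share exon bases with other records on their own strand, and the part of this in the shift was not tested. In the clamp loader, RFC3 made up 14.8% in Mut4 cells and 11.7% in ZHX2 cells, and RFC1 14.2% in Mut4 cells and 17.5% in ZHX2 cells, another reversed pair. GINS2 was the most abundant GINS mRNA in both profiles, at 66.9% in Mut4 cells and 70.1% in ZHX2 cells. The 3 polymerase delta subunits kept close shares, POLD1 at 45.4% in Mut4 cells and 43.9% in ZHX2 cells, POLD2 at 34.7% in Mut4 cells and 36.4% in ZHX2 cells, and POLD3 at 19.8% in Mut4 cells and 19.7% in ZHX2 cells.

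**Figure D4:**
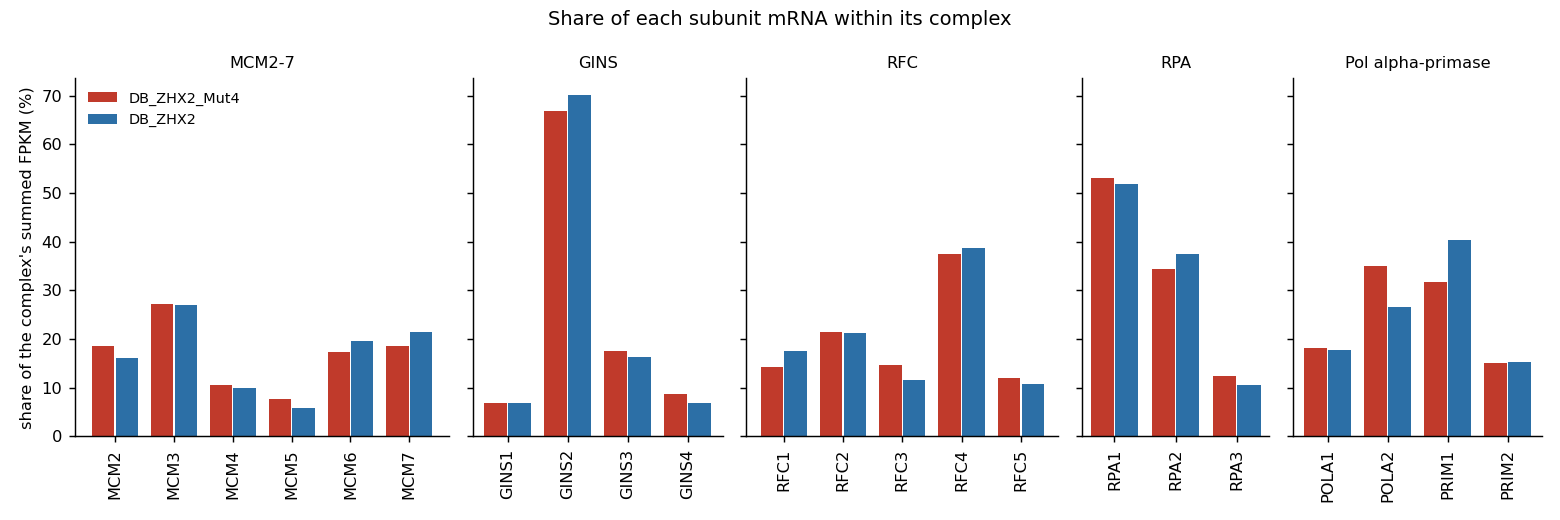
Share (%) of each subunit in the summed FPKM of its complex in Mut4 cells (left bars) and ZHX2 cells (right bars), 1 profile each and without error bars. POLA2 against PRIM1, RFC3 against RFC1 and MCM2 against MCM6 change order between the profiles.

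Other replication factors showed the same direction with lower ratios. Of 42 further genes from a written list of initiation, fork and chromatin factors, 41 passed the filter, with a median of 0.18. Of these, 34 had ratios above 0 (82.9%, against 53.8% of all genes). At least 1.2-fold higher were 11 (26.8%, against 16.4% of all genes), and 0 were 1.2-fold lower (against 13.0%). The highest were ASF1B, a histone chaperone that hands histones to CAF-1, at 21.1 FPKM in Mut4 cells, against 14.1 in ZHX2 cells (0.56), CHTF18, of an alternative clamp loader, at 5.20 FPKM in Mut4 cells, against 3.33 in ZHX2 cells (0.52), the topoisomerase TOP2A at 57.9 FPKM in Mut4 cells, against 41.9 in ZHX2 cells (0.46), and DBF4B, an activator of the CDC7 kinase, at 3.17 FPKM in Mut4 cells, against 2.13 in ZHX2 cells (0.41). The lowest were the origin complex subunits ORC5 and ORC4 (−0.24 and −0.16), the MCM-binding protein MCMBP (−0.14) and the ribonuclease RNASEH1 (−0.09). The table's own annotation gave 2 further lists of genes outside the 41. Of 9 measured genes annotated to DNA replication in KEGG, 8 had ratios above 0 (88.9%, against 53.8% of all genes). Of the 9, 3 were 1.2-fold higher (33.3%, against 16.4% of all genes), and the median was 0.22. Of 71 measured genes with the broader gene ontology term DNA replication, 46 were above 0 (64.8%, against 53.8% of all genes). Upward, 14 passed 1.2-fold (19.7%, near the 16.4% of all genes), and downward 5 (against 13.0% of all genes). The median was 0.11. Both annotation lists were added after the values were seen.

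Mitotic and nucleotide synthesis genes, whose mRNAs also follow the cell cycle, had medians near that of the 41. Of 20 mitotic genes, 19 had ratios above 0 (95%, against 53.8% of all genes) and 8 were 1.2-fold higher (40%, against 16.4%). Their median was 0.22, led by MKI67 (0.87) and KIF20A (0.50). Of 16 nucleotide synthesis genes, 12 were above 0 (75%, against 53.8%) and 5 were 1.2-fold higher (31.2%, against 16.4%). Their median was 0.20, led by RRM2 (0.60) and DTYMK (0.44). With 1 profile per group no difference between these lists could be tested, and nothing here is particular to the replication genes. By level, the 20 members of lowest FPKM had a median ratio of 0.30, with 11 at least 1.2-fold higher. The 20 of highest FPKM had a median of 0.23, with 7 past that fold. Over all genes 16.4% passed it, and the scale understates the folds of low genes.

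**Figure D5:**
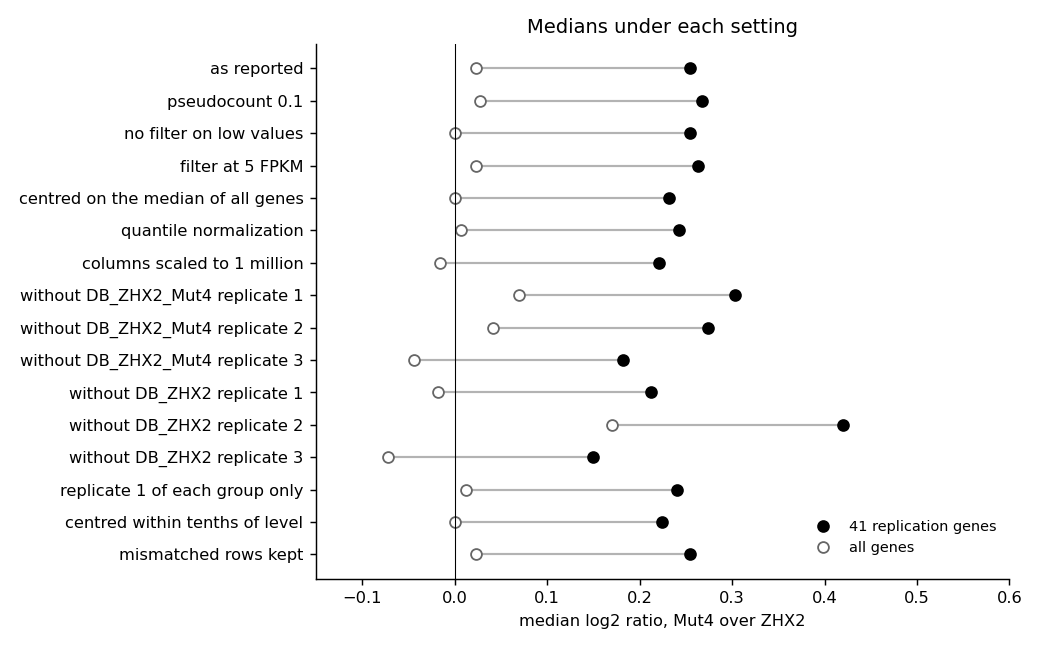
Median log2 ratio of the 41 replication genes (filled) and of all genes (open) under the values as reported and 15 other settings. Both points move together when a column is left out, and the filled point lies to the right of the open one in every setting, by 0.22 to 0.25.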

How the data were processed

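Poly(A) RNA-seq of 3 labelled libraries per group was used. Per the submitters' processing notes, fastp, HISAT2, StringTie and edgeR and the build GRCh38 were used, with no versions given. The deposited table holds FPKM per gene and column. It also holds the authors' linear ratio and the log2 of that ratio, and both a q-value and a p-value are deposited for each gene. The ratio is ZHX2 over Mut4 cells (replicate 1), opposite in direction to the ratios above.

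The columns of a group proved to be 1 profile times constants, so the planned limma fit was not run and each group is 1 sample, the mean of its columns. Rows whose FPKM and deposited ratio differ (ATG5, ACSL1 and SLC7A11) were left out. Members, lists and the 1.2-fold and 1.5-fold limits were chosen with earlier results of these data known. Named genes were all members, the 4 highest and lowest of the other replication, E2F and checkpoint lists, the 2 highest of the mitotic and nucleotide lists, and E2F1, ZHX2 and SLC3A2. A further B-cell marker is not reported here. Coordinates are from GENCODE v29. Steps were tested on simulated data. Python 3.11.15, numpy 2.4.6 and pandas 2.3.3 were used.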

Additional observations from a re-analysis of the deposited data

How the results depend on the processing

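No paired analysis was possible because each group is a single profile repeated at other scales and nothing was tested, so no replicate block was fitted. By construction, an omitted column shifts all ratios together. Over the 6 omissions the median of the 41 ran from 0.15 to 0.42. The count at least 1.2-fold higher ran from 9 to 34, against 10.1% to 35.1% of all genes. The count at least 1.5-fold higher ran from 0 to 7, with 0 lower at either fold. For these last counts no share of all genes was computed. The median of other replication genes ran from 0.086 to 0.34, of licensing from −0.10 to 0.18, helicase 0.16 to 0.44, polymerase 0.21 to 0.48, clamp 0.13 to 0.43, RPA 0.056 to 0.35, chromatin assembly 0.16 to 0.44 and fork protection 0.14 to 0.40. The lowest values were without ZHX2 replicate 3 and the highest without ZHX2 replicate 2. A pseudocount of 0.1, no filter, a filter at 5 FPKM, centring, quantile normalization and scaling columns to a common sum moved the median of the 41 by under 0.1 and its count at 1.2-fold to between 16 and 21, as did replicate 1 alone, centring within classes of level and keeping the mismatched rows, which were added after the data were seen. Under these last settings, 10.2% to 21.3% of all genes passed 1.2-fold. Of the 41, 10 had a ratio whose sign differed between settings. The files give no depth, so counting error is unknown.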

Other observations

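A list that pools activators and repressors of replication genes was mixed in direction, so its share above 0 describes neither kind alone. Of 18 genes of the E2F, RB and DREAM regulators, 9 stood above 0 (50%, against 53.8% of all genes) and 4 reached 1.2-fold (22.2%, against 16.4%), and the median was −0.0038. E2F1, an activator of G1/S genes, had 16.5, 17.4 and 19.9 FPKM in Mut4 cells, against 11.9, 15.9 and 10.7 FPKM in ZHX2 cells (0.46), with no overlap between the columns. RBL2, a pocket protein, also stood at 0.46, MYBL2 at 0.44 and E2F2 at 0.27. The lowest were the repressor E2F6 (−0.25), LIN37 (−0.23), RB1 (−0.20) and LIN52 (−0.08).

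Of 16 genes of the replication checkpoint and fork repair, 13 stood above 0 (81.2%, against 53.8% of all genes) and 3 reached 1.2-fold (18.8%, near the 16.4% of all genes), and the median was 0.07. FANCD2, monoubiquitinated at blocked forks, averaged 4.49 FPKM in Mut4 cells, against 3.26 in ZHX2 cells (0.36), and its partner FANCI 10.8 FPKM in Mut4 cells, against 8.60 in ZHX2 cells (0.30). ETAA1, an activator of ATR, stood at 0.28 and the phosphatase CDC25A at 0.17. The helicase BLM averaged 15.3 FPKM in Mut4 cells, against 18.4 in ZHX2 cells (−0.25), and RAD9A, EXO1 and RAD1 lay at −0.01, −0.01 and 0.01. SLC3A2, an amino acid transporter subunit, averaged 38.0 FPKM in Mut4 cells, against 102.0 in ZHX2 cells (−1.40).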
